A study of Mus musculus with 3 samples.

Results

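Club cells low in Scgb3a2 were examined in mouse lung 4 weeks after bleomycin, which injures the lung epithelium. They were chosen by RNA content alone: barcodes with at least 5000 UMIs (unique molecular identifiers, each standing for 1 captured RNA molecule), at least 500 genes and at most 15% mitochondrial UMIs, in which Scgb1a1 gave at least 25% of all UMIs and Scgb3a1, Sftpc and Scgb3a2 each gave under 1%. There were 492 such cells among 7862 barcodes that met the quality limits and 16627 deposited barcodes. The 313 cells that met every other limit but had 1% or more of their UMIs in Scgb3a2 are called Scgb3a2-high below and served for comparison.

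All cells came from whole lung of Scgb1a1-CreER;Sftpc-DreER;R26-TLR mice, in which Cre is driven by the club cell gene Scgb1a1, Dre by the alveolar type 2 (AT2) gene Sftpc, and the reporter allele carries tdTomato and ZsGreen. Every library was from bleomycin-treated lung, so no uninjured lung was compared. Cells were sorted by reporter colour into a Club-Tracer library (tdTomato+), a BASC-Tracer library (ZsGreen+ tdTomato+, bronchioalveolar stem cells) and an AT2-Tracer library (ZsGreen+), and each was sequenced by Chromium 5′ chemistry. Each sort was 1 library; the number of animals behind it, their age and the tamoxifen schedule are not given in the sources used here. With 1 library per sort there is no replicate check, so no p-value is given, and every 95% interval below (exact Poisson for levels, exact conditional binomial for ratios, Clopper-Pearson for shares) covers counting error only.

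Club cells are the secretory cells of the mouse bronchioles. They release secretoglobins, of which Scgb1a1 (uteroglobin) is the most abundant, and carry much of the lung's xenobiotic metabolism through enzymes such as Cyp2f2. In injury and inflammation, airway cells also release acute phase and defence proteins, among them serum amyloid A3 (Saa3), a secreted apolipoprotein induced by interleukins 1 and 6, and lipocalin 2 (Lcn2), which binds bacterial siderophores. Retnla (also called RELMα or FIZZ1) is a small secreted protein known for its induction by type 2 cytokines.

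The club cell label was checked with Cyp2f2, since Scgb1a1 chose the cells. Scgb1a1, on chromosome 19 (9083636 to 9087958, reverse strand, GRCm38), made up a median 41.3% of a cell's UMIs in the Club-Tracer library (25.1% to 74.4%) and 35.5% in the BASC-Tracer library (25.3% to 58.2%), which the selection fixed in part. Cyp2f2, a club cell enzyme that the selection did not use, was abundant, at 7304 CPM (UMIs of the gene per 1e6 UMIs, summed over the cells of a group) in Club-Tracer and 8833 CPM in BASC-Tracer cells. Retnla, on chromosome 16 (48842551 to 48844461), stood at 14958 and 15780 CPM in those libraries. Saa3 was not a general marker of these cells: its median over cells was 0 CPM in each of these libraries.

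Because Saa3 is the acute phase gene whose place in these cells was in question, its promoter is shown. Saa3 (ENSMUSG00000040026) lies on chromosome 7 from 46711998 to 46715700 on the reverse strand. The stretch before its annotated start, chr7:46715701-46715926 in GRCm38 (RefSeq, 5′ to 3′ on the gene's strand, with 24 bases that fall in an annotated exon left out of the 250), carries in capitals each match to TTNNGNAA, a form of the motif of C/EBP factors, which drive acute phase genes in liver.

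Saa3: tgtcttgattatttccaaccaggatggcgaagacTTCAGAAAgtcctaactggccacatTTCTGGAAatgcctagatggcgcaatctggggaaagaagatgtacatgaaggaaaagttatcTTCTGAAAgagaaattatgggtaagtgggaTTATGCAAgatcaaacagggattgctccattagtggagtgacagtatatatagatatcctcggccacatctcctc

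The window held 4 matches, with both strands searched, and no match to an NF-kB-type motif (GGG, any 5 bases, CC). Among 32851 promoter windows of the same 226 bases, 34.8% held TTNNGNAA and 42.1% held the NF-kB-type motif at least once, so these matches describe the letters and not a bound factor.

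Depth and shared barcodes differed between the libraries in ways that touch later results. The low cells had a median of 27217.5 UMIs in Club-Tracer (5030 to 68012) and 35961 UMIs in BASC-Tracer (6646 to 73080), close to the 27536 and 38042 UMIs of the Scgb3a2-high cells of the same libraries. Of 199 barcodes found in more than 1 library, 9 were among the 424 low cells and 4 among the 263 Scgb3a2-high cells of Club-Tracer, against 20 of 65 low and 20 of 47 high cells in BASC-Tracer. The 20 shared BASC-Tracer low cells had a median of 53299.5 UMIs, against 27254 UMIs in the 45 unshared ones. In the other libraries 30 of the 31 barcodes of the same sequence held under 500 genes and none was a low cell. Those 30 held 502 to 1106 UMIs, of which Scgb1a1 made up 32.6% to 82.4%. Why the barcodes were shared was not tested, and leaving them out removes deep cells. Values for BASC-Tracer are therefore given with and, where they move, without the shared barcodes. Leaving them out keeps 45 low and 27 Scgb3a2-high cells of that library.

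Low cells were most frequent in the Club-Tracer library. There were 424 of them among 2601 barcodes that met the quality limits (16.3%, 95% interval 14.9% to 17.8%), against 65 of 1009 in BASC-Tracer (6.44%, 5.01% to 8.14%) and 3 of 4252 in AT2-Tracer (0.0706%, 0.0146% to 0.206%). These are shares of cells sorted by reporter colour. Sort and library cannot be told apart here, so the part of the sort in the differing shares was not tested. Within the cells that met the limits on Scgb1a1, Scgb3a1 and Sftpc, the low cells made up similar parts: 61.7% of 687 in Club-Tracer (58.0% to 65.4%) and 58.0% of 112 in BASC-Tracer (48.3% to 67.3%).

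The 1% limit cut through a continuous range of Scgb3a2 and did not separate clusters. The median Scgb3a2 share was 0.191% in low cells, against 2.07% in Scgb3a2-high cells of Club-Tracer, and 0.133% against 1.86% in BASC-Tracer. In Club-Tracer 109 low cells lay between 0.5% and 1%, and 123 high cells between 1% and 2%; the nearest cells on either side held 0.998% and 1.00%. In BASC-Tracer 15 low cells and 27 high cells lay in those ranges. No Scgb3a2 UMI was found in 30 Club-Tracer and 8 BASC-Tracer low cells.

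**Figure D1:**
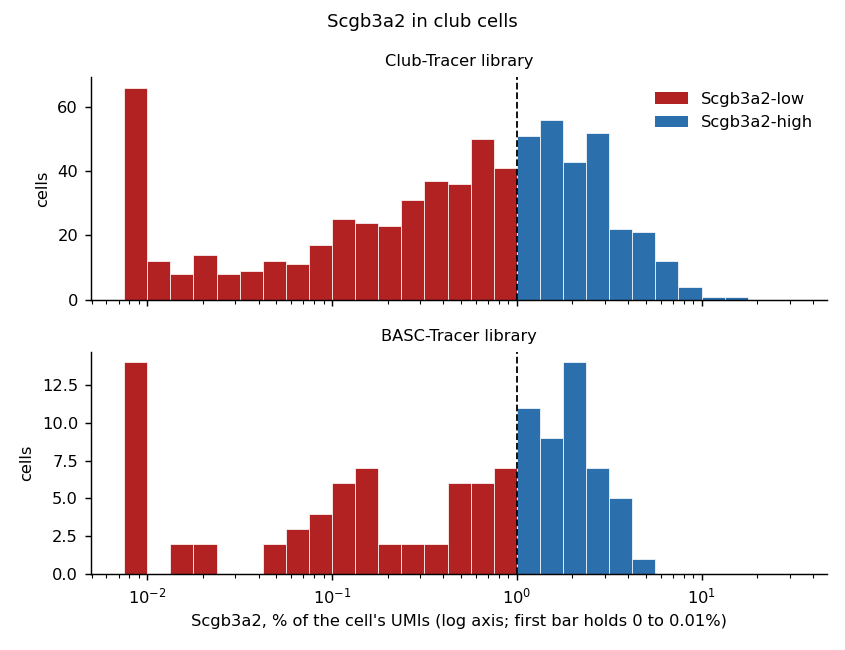
Number of cells (vertical axis) by the share of UMIs in Scgb3a2 (horizontal axis, percent, log scale) among cells that met the other limits, in Club-Tracer and in BASC-Tracer; the dashed line marks the 1% limit and the leftmost bar holds cells from 0 to 0.01%. The 424 and 65 cells left of the line run into the 263 and 47 cells right of it with no gap at the limit.

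The sort was visible in the ZsGreen transcript of the low cells. ZsGreen transcript (listed as ZsGFP) stood at 10.0 CPM in Club-Tracer against 5614 CPM in BASC-Tracer low cells. The tdTomato transcript stood at 266 against 819 CPM, although both sorts took tdTomato+ cells, and the cause of that difference was not tested. The 3 AT2-Tracer low cells, with 89210 UMIs in all, held 1222 CPM of ZsGFP and 22.4 CPM of tdTomato transcript. They held 1 Saa3 UMI and 278 Lcn2 UMIs (3116 CPM), and are too few for any comparison.

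Low cells differed little from Scgb3a2-high cells across most genes, and in Club-Tracer the highest ratios were those of Napsa and Slc34a2, genes of AT2 cells. There, Napsa, Slc34a2, Scd1 and Rnase4 were more than 2-fold higher in low cells, and Bpifa1 and Sult1d1 were more than 2-fold lower. Scd1 and Rnase4 were on none of the alveolar gene lists used below. A gene is called apart here when its CPM differed at least 2-fold after adding 5 CPM to each group, among genes at 50 CPM or more in either group; the 4 genes of the selection were left out. Of 1537 genes tested, 4 were higher (0.26%) and 2 lower (0.13%), 0.39% together. The median log2 ratio was 0.09, and 79.1% of genes lay within 0.25 log2 of 0. At 1.5-fold, 33 genes were higher (2.15%) and 8 lower (0.52%). When CPM was computed outside the 4 genes of the selection, 7 were higher and 12 lower. In BASC-Tracer, 14 of 1745 genes were higher (0.802%) and 7 lower (0.401%), 1.2% together, with a median of 0.13. At 1.5-fold, 80 were higher (4.58%) and 12 lower (0.688%). With the ratios centred on that median the split was 5 and 7, and without the shared barcodes 92 of 1848 genes were higher (4.98%) and 11 lower (0.595%), with a median of 0.19. The highest ratios in BASC-Tracer were those of Cxcl2 (log2 2.54), Id3 (2.07, named after its value was seen), Clu (460 against 111 CPM) and Igfbp7 (1.90, likewise), and Chia1 followed at 1.65.

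The alveolar genes were led by Napsa, which encodes the aspartic protease napsin A that processes surfactant proteins (chromosome 7, 44572380 to 44586862, forward strand). Napsa stood at 335 CPM in low cells, against 134 CPM in Scgb3a2-high cells of Club-Tracer, a ratio of 2.51 (2.34 to 2.69). In BASC-Tracer it stood at 288 against 238 CPM (log2 0.27, not apart), and at 332 against 103 CPM without the shared barcodes (log2 1.65). The size of the Napsa difference in BASC-Tracer thus rested on which barcodes were kept. Slc34a2, the phosphate transporter of AT2 cells (chromosome 5, 53038081 to 53071664), stood at 386 against 161 CPM in Club-Tracer (2.39, 2.24 to 2.55) and at 612 against 408 CPM in BASC-Tracer, or 537 against 178 CPM without the shared barcodes. Scd1, a fatty acid desaturase, stood at 390 against 166 CPM in Club-Tracer and 356 against 310 CPM in BASC-Tracer, or 443 against 128 CPM without the shared barcodes. The ratios of Napsa, Slc34a2 and Scd1 lay above 1 in both libraries, and in BASC-Tracer they passed 2-fold only without the shared barcodes. Among cells of 20000 or more UMIs, Rnase4 stood at 75.5 against 32.7 CPM in Club-Tracer and 54.8 against 62.2 CPM in BASC-Tracer. Its BASC-Tracer values without the shared barcodes, at any depth, were 61.2 against 15.8 CPM.

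Other genes of lipid and surfactant handling lay just under the limit in Club-Tracer. Lpcat1, which makes the saturated phospholipid of surfactant, stood at 114 against 57.8 CPM (log2 0.93). Lyz2, a lysozyme of AT2 cells and macrophages, stood at 1800 against 899 CPM (log2 1.00 when rounded, 0.997 before, and so not called), with 72.4% of its UMIs in the top 5% of low cells. Elovl1, a fatty acid elongase, stood at 105 against 52.6 CPM in Club-Tracer and 83.5 against 111 CPM in BASC-Tracer, on opposite sides of equality; without the shared barcodes it was 85.0 against 55.3 CPM in BASC-Tracer (log2 0.58), on the same side as in Club-Tracer. Of the AT2 list (22 genes), 11 were tested in Club-Tracer, 2 were higher (Napsa and Slc34a2) and none lower; 10 had a positive log2 ratio and the median was 0.64 beside 0.09 for all genes. In BASC-Tracer 12 were tested, none was apart, 10 were positive and the median was 0.25 beside 0.13. Without the shared barcodes 7 of those 12 were higher, among them Napsa, Slc34a2, Lyz2 (989 against 227 CPM) and Lpcat1 (151 against 45.8 CPM). The median was 1.14 beside 0.19, and 4.98% of all genes tested there were higher. Of the surfactant list (9 genes), 7 were tested in Club-Tracer, of which the same 2 were higher, with a median of 0.37; in BASC-Tracer none of 7 was apart and the median was 0.41, and without the shared barcodes 4 were higher and the median was 1.07. Those 4 were Napsa, Slc34a2 and, named after their values were seen, Sftpd and Ctsh. In Club-Tracer Sftpa1, a surfactant collectin, went the other way at 4898 against 5608 CPM. Sftpb, a surfactant protein for film spreading, stood at 6865 against 5898 CPM there, and neither was apart. In BASC-Tracer without the shared barcodes both lay higher in low cells, short of 2-fold. Sftpa1 stood at 7532 against 4575 CPM (log2 0.72) and Sftpb at 7085 against 4512 CPM (log2 0.65).

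Genes of alveolar type 1 (AT1) cells, the flat gas exchange cells, lay higher in low cells in both libraries. Ager, the AT1 receptor also called RAGE (chromosome 17, 34597862 to 34600936), stood at 631 against 387 CPM in Club-Tracer (1.63, 1.56 to 1.70), short of 2-fold, and at 670 against 307 CPM in BASC-Tracer (2.18, 1.98 to 2.40), which was apart. Emp2, a tetraspan membrane protein of AT1 cells, stood at 73.4 against 47.6 CPM in Club-Tracer and 83.1 against 35.7 CPM in BASC-Tracer. Hopx, a homeodomain protein of AT1 cells, stood at 365 against 272 CPM and 329 against 232 CPM. All 8 tested members of the AT1 list (18 genes) had a positive ratio in each library. The medians were 0.45 and 0.56, beside 0.09 and 0.13 for all genes, and none was apart in Club-Tracer. In BASC-Tracer 3 were higher: Ager, Emp2 and, named after its value was seen, Lmo7, a junction protein, at 139 against 63.4 CPM. Of all genes tested in BASC-Tracer, 0.802% were higher. The same 3 were higher without the shared barcodes, where the median was 0.80 beside 0.19 for all genes, of which 4.98% were higher.

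The part of free RNA and of doublets in the alveolar genes was not tested, and the values that bear on them are as follows. Low cells of Club-Tracer held a mean of 9.09 Napsa and 17.1 Ager UMIs at a median depth of 27217.5 UMIs. The 36 immune barcodes of that library (median 2951 UMIs) held a mean of 0.222 Ager UMIs, with Ager found in 22.2% of them, and in the 105 immune barcodes of BASC-Tracer (median 9375 UMIs) Ager was found in 12.4%. Slc34a2 was found in 5.56% of the Club-Tracer and 17.1% of the BASC-Tracer immune barcodes, and Rnase4 in 22.2% and 75.2%. Napsa was found in 38.9% of the Club-Tracer and 22.9% of the BASC-Tracer immune barcodes, and whether its UMIs there were free RNA was not tested. After each cell was thinned to 5000 UMIs, Napsa was detected in 53.8% of low and 33.1% of Scgb3a2-high cells of Club-Tracer, and in 61.5% and 34.0% in BASC-Tracer. Ager was detected in 73.8% and 58.9% in Club-Tracer, and in 81.5% and 66.0% in BASC-Tracer. The higher detection in low cells was thus also present at equal depth. Doublet calling marked 3 low cells in Club-Tracer and none in BASC-Tracer, and marked cells were kept.

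Chia1, an acidic mammalian chitinase that digests chitin (chromosome 3, 106113229 to 106132120), was higher in low cells of both libraries. It stood at 621 against 321 CPM in Club-Tracer (1.94, 1.85 to 2.03), just short of the limit, and at 572 against 180 CPM in BASC-Tracer (3.19, 2.83 to 3.60), which was apart. Without the shared barcodes the BASC-Tracer values were 770 against 166 CPM. The levels differed widely between cells: the median was 82.6 CPM in Club-Tracer low cells, with the 10th percentile at 0 and the 90th at 1104 CPM. Metallothioneins, which bind zinc and copper, went the same way. Mt1 stood at 720 against 392 CPM in Club-Tracer and 816 against 479 CPM in BASC-Tracer, and Mt2 at 101 against 51.8 CPM and 118 against 79.4 CPM; none of these reached 2-fold. Both were apart in BASC-Tracer without the shared barcodes, Mt1 at 850 against 205 CPM (log2 2.02) and Mt2 at 122 against 22.1 CPM (log2 2.22).

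Genes of the club and xenobiotic metabolism lists lay slightly lower in low cells of Club-Tracer and were more evenly split in BASC-Tracer. Of the club list (25 genes), 19 were tested in Club-Tracer, none was apart, 17 had a negative ratio and the median was -0.13 beside 0.09 for all genes. In BASC-Tracer 20 were tested, 13 were negative and the median was -0.03; 1 was lower, Upk3a (a uroplakin, named after its value was seen), at 11.9 against 77.3 CPM. With the shared barcodes left out, 9 were negative, Upk3a was again the 1 lower, and the median was 0.04 beside 0.19. Of the xenobiotic metabolism list (43 genes), 24 were tested in Club-Tracer, 1 was lower (Sult1d1, a sulfotransferase, 28.7 against 64.2 CPM) and 18 were negative, with a median of -0.13; in BASC-Tracer none was apart and 12 of 24 were negative. In BASC-Tracer Sult1d1 stood at 38.9 against 37.8 CPM (log2 0.04), and without the shared barcodes at 35.7 against 11.1 CPM (log2 1.34), opposite to Club-Tracer.

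Pon1, the lactonase paraoxonase 1 (chromosome 6, 5168090 to 5193946, reverse strand), lay lower in low cells of both libraries. It stood at 348 against 600 CPM in Club-Tracer (0.579, 0.555 to 0.604) and 303 against 491 CPM in BASC-Tracer (0.618), short of 2-fold in each; without the shared barcodes the BASC-Tracer values were 286 against 362 CPM (log2 -0.33, beside -0.69 with them). Cyp2f2 did not share this difference: it stood at 7304 against 7277 CPM in Club-Tracer and 8833 against 7457 CPM in BASC-Tracer. Aldh3a1, an aldehyde dehydrogenase, stood at 110 against 161 CPM in Club-Tracer and 103 against 104 CPM in BASC-Tracer.

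Bpifa1, a secreted defence protein of the upper airways (chromosome 2, 154142880 to 154149219), had the lowest ratio in Club-Tracer, at 30.5 against 289 CPM (0.106, 0.0941 to 0.118). This value rested on few cells: the top 5% of Scgb3a2-high cells held 98.1% of its UMIs. After thinning, Bpifa1 was detected in 4.72% of low and 5.70% of Scgb3a2-high cells. In BASC-Tracer it had 0 UMIs in low cells and 4 in high cells. With the Scgb3a2 limit at 2% in place of 1%, the log2 ratio in Club-Tracer was 2.43, on the other side of 0.

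Gmnn, which blocks relicensing of DNA replication, and Nrarp, a target and inhibitor of Notch signalling, were lower in low cells of both libraries. Gmnn stood at 50.7 against 97.5 CPM in Club-Tracer (log2 -0.88) and 48.2 against 120 CPM in BASC-Tracer (log2 -1.24). Nrarp stood at 25.1 against 50.8 CPM (log2 -0.89) and 29.2 against 64.5 CPM (log2 -1.02). Both were apart in BASC-Tracer and short of the limit in Club-Tracer, and both kept their direction without the shared barcodes (log2 -1.24 and -0.97). Of the Notch list (16 genes), 2 were tested in each library, Nrarp and Hes1. The Hes1 ratio was negative in Club-Tracer and positive in BASC-Tracer, apart in neither. Without the shared barcodes Hes1 was apart in BASC-Tracer, higher in low cells at 222 against 106 CPM (log2 1.03).

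Immediate early and heat shock genes, which are switched on within minutes of a stimulus and also by tissue dissociation, lay slightly higher in low cells of Club-Tracer and were evenly split in BASC-Tracer. All 20 tested members of that list (22 genes) had a positive ratio in Club-Tracer with a median of 0.33, and none was apart. In BASC-Tracer 11 of 22 were positive and the median was -0.01; leaving out the shared barcodes, 9 were positive, the median was -0.13 and 1 was lower (Hspa1a, a heat shock protein, named after its value was seen). Atf3, a stress-induced factor, stood at 593 against 385 CPM in Club-Tracer and 694 against 845 CPM in BASC-Tracer. Summed, the list stood at 11834 against 9711 CPM in Club-Tracer and 14083 against 13872 CPM in BASC-Tracer, and its part in the other differences was not tested.

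**Figure D2:**
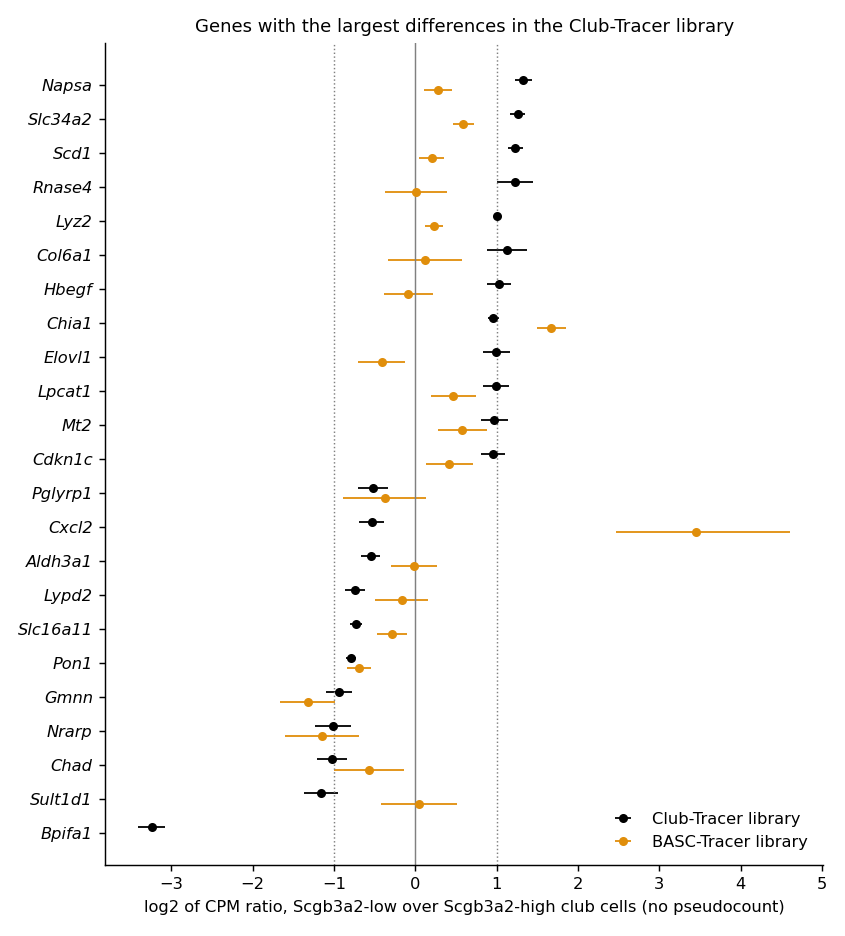
Log2 ratio of CPM in Scgb3a2-low over Scgb3a2-high cells (horizontal axis, no added CPM) of the genes ranked highest and lowest, with 1 point per library (Club-Tracer and BASC-Tracer) and 95% counting intervals; dotted lines mark 2-fold. Napsa, Slc34a2 and Chia1 lie right of 0 and Pon1 and Gmnn left of 0 in both libraries, while Elovl1 and Cxcl2 change side (Elovl1 only with the shared barcodes, which are kept here); Bpifa1 has no BASC-Tracer point because it had 0 UMIs in low cells there.

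Markers of other cell types in the low cells of Club-Tracer are given beside the above. The macrophage list summed to 1887 CPM in low cells, against 979 CPM in Scgb3a2-high cells, of which all but 86.5 and 79.2 CPM was Lyz2; 12 of its 23 genes, including Ptprc, Tyrobp and Marco, were at 0 in low cells. The AT2 list summed to 20572 against 17137 CPM and the AT1 list to 2549 against 1905 CPM. The ciliated cell list summed to 510 against 414 CPM and the basal cell list to 462 against 335 CPM, with Krt5 and Krt14 at 0 in low cells. The endothelial list summed to 31.5 against 39.6 CPM and the fibroblast list to 0.783 against 0.664 CPM. In BASC-Tracer the AT2 list summed to 20689 against 19394 CPM, the AT1 list to 2592 against 1718 CPM and the macrophage list to 782 against 658 CPM. These sums without the shared barcodes were 22868 against 13708 CPM, 2863 against 1714 CPM and 1148 against 311 CPM.

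Across the range of Scgb3a2, alveolar genes and Pon1 ran in opposite directions. Cells were placed in bins of Scgb3a2 share of under 0.1%, 0.1 to 0.3%, 0.3 to 1%, 1 to 3% and 3 to 10%, which held 157, 95, 172, 198 and 63 cells of Club-Tracer. From the lowest bin to the highest, Ager stood at 820, 639, 443, 416 and 309 CPM. Chia1 stood at 947, 568, 333, 366 and 188 CPM, and Mt1 at 873, 729, 565, 432 and 276 CPM. Ager and Mt1 declined at every step and Chia1 at every step but the last but one. Pon1 stood at 234, 315, 476, 574 and 677 CPM, higher at every step. Most of the Napsa difference lay below 1%: it stood at 464, 332, 212, 138 and 123 CPM. Median depth did not run in 1 direction over these bins, at 30400, 22663, 25123, 27963.5 and 27253 UMIs.

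In BASC-Tracer, with 27, 17, 21, 39 and 8 cells in the bins, Ager stood at 968, 504, 431, 306 and 313 CPM and Chia1 at 697, 629, 371, 183 and 167 CPM. Pon1 stood at 275, 325, 321, 447 and 668 CPM. These genes had their extreme values at the same ends of the range as in Club-Tracer, but for Ager, lowest in the last bin but one, while Napsa, at 327, 349, 192, 239 and 234 CPM, did not run in 1 direction.

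**Figure D3:**
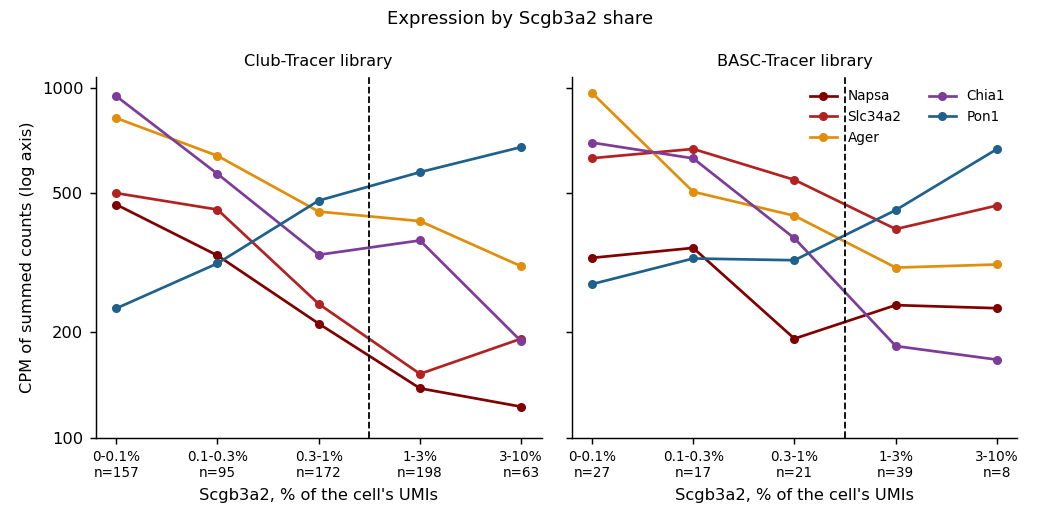
CPM (vertical axes) of single genes by bin of Scgb3a2 share (horizontal axis, percent), in Club-Tracer and in BASC-Tracer, with 1 line per gene and no error bars; the vertical axis is a log scale, the dashed line marks the 1% limit, and bins of under 5 cells are left out. Ager and Chia1 are highest and Pon1 is lowest in the leftmost bin of both libraries.

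The differences in Ager, Chia1 and Pon1 were present in each depth group of Club-Tracer. In cells with 5000 to under 10000, 10000 to under 20000 and 20000 or more UMIs, Ager stood at 428, 470 and 665 CPM in low cells, against 201, 231 and 418 CPM in Scgb3a2-high cells. Chia1 stood at 251, 312 and 687 CPM in low cells, against 68.8, 178 and 351 CPM in high cells. Pon1 stood at 262, 325 and 355 CPM in low cells, against 476, 518 and 617 CPM in high cells. Within each group the order was the same as in the whole, although the levels themselves grew with depth.

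No acute phase gene was apart between low and Scgb3a2-high cells with all barcodes kept, and 4 were apart in BASC-Tracer without the shared barcodes. Haptoglobin (Hp) was the most abundant of them, and Saa3 one of the least. Of 35 listed genes, 13 were tested in Club-Tracer and none was apart; 7 had a positive and 6 a negative ratio, with a median of 0.07 beside 0.09 for all genes. In BASC-Tracer 12 were tested, none was apart, 7 were positive and the median was 0.02 beside 0.13. Without the shared barcodes Mt1, Mt2 and Nfkbiz (an NF-kB regulator, 52.7 against 22.1 CPM, log2 1.09) were higher and Saa3 was lower (13.6 against 67.9 CPM, log2 -1.97). The median was 0.18 beside 0.19. Of all 1848 genes tested there, 4.98% were higher and 0.595% lower, from 45 low and 27 Scgb3a2-high cells.

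Hp, which binds free haemoglobin, stood at 9923 against 12039 CPM in Club-Tracer and 9613 against 12344 CPM in BASC-Tracer. It was found throughout the low cells of Club-Tracer, with a median of 8197 CPM and the 10th and 90th percentiles at 3420 and 16167 CPM. Lcn2 stood at 999 against 912 CPM in Club-Tracer and 874 against 1137 CPM in BASC-Tracer, with a median over low cells of 476 and 295 CPM in those libraries. Lrg1, a secreted leucine-rich glycoprotein, stood at 524 against 458 CPM and 342 against 312 CPM. Ceruloplasmin (Cp), which carries copper, stood at 194 against 198 CPM and 240 against 177 CPM, and complement C3 at 104 against 110 CPM and 111 against 109 CPM. These 5 genes differed by less than 2-fold in either library, also without the shared barcodes.

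Orm1, the plasma carrier protein orosomucoid, had a ratio near the limit in Club-Tracer at 57.0 against 28.3 CPM (log2 0.90), and lay at 40.2 against 35.7 CPM in BASC-Tracer. Thinned to 5000 UMIs, it was detected in 17.5% of low and 6.84% of Scgb3a2-high cells of Club-Tracer, and it was found in none of the immune barcodes. Of regulators of the response, Cebpb stood at 231 against 237 CPM, Cebpd at 256 against 200 CPM and Socs3, an inhibitor of cytokine signalling, at 92.6 against 88.2 CPM in Club-Tracer. In BASC-Tracer Cebpd stood at 185 against 249 CPM, on the other side of equality.

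Retnla varied more between cells than between groups. In Club-Tracer it stood at 14958 against 15060 CPM, while single low cells had a median of 4458 CPM with the 10th percentile at 148 and the 90th at 36177 CPM. In BASC-Tracer it stood at 15780 against 11614 CPM (log2 0.44), short of 2-fold, and at 11080 against 4866 CPM without the shared barcodes (log2 1.19), which was apart. Low cells of Club-Tracer held a mean of 405.5 Retnla UMIs, against 0.667 UMIs in the immune barcodes of that library, of which 44.4% held any.

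**Figure D4:**
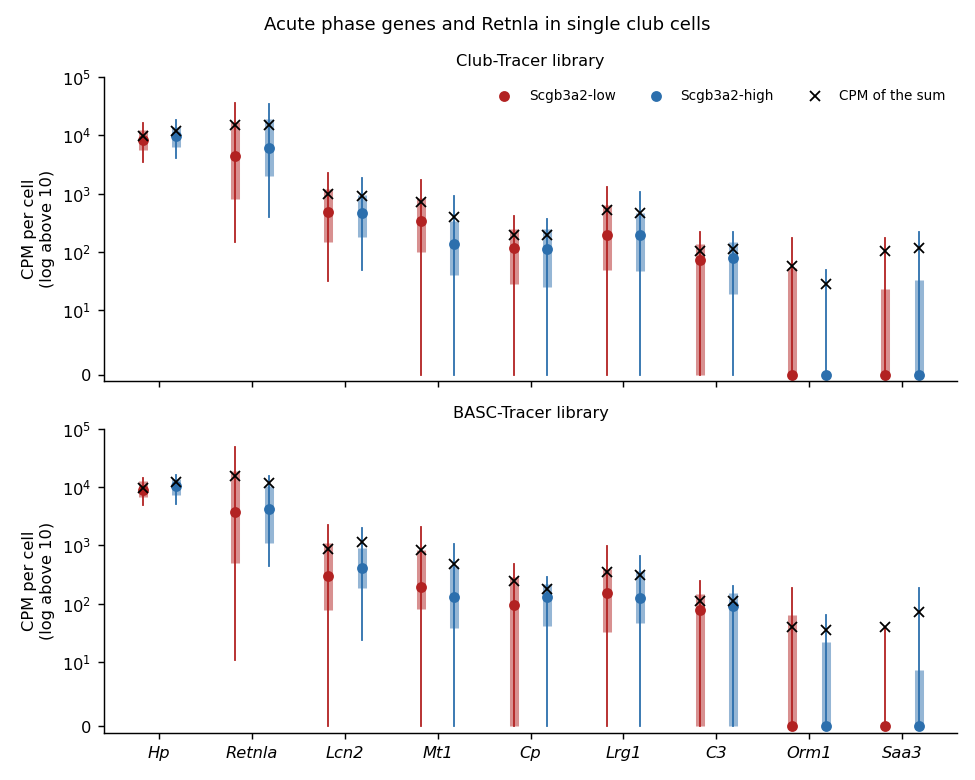
CPM per cell (vertical axis, log scale above 10 CPM) of 9 genes in Scgb3a2-low and Scgb3a2-high cells of Club-Tracer and of BASC-Tracer; dots are medians over cells, thick bars quartiles, thin lines the 10th to 90th percentile and crosses the CPM of the summed UMIs. Hp lies near 8197 CPM in most Club-Tracer low cells, whereas the Saa3 median is 0.

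Saa3 came from a small part of the low cells. In Club-Tracer its 1164 UMIs gave 101 CPM in low cells (95.5 to 107), against 862 UMIs and 115 CPM in Scgb3a2-high cells (107 to 123), a ratio of 0.884 (0.809 to 0.967). The top 5% of cells held 78.3% of the Saa3 UMIs in low cells and 70.9% in high cells, and the highest single low cell reached 5134 CPM. In BASC-Tracer, 90 UMIs gave 39.8 CPM in low cells against 133 UMIs and 70.9 CPM in high cells, a ratio of 0.561 (0.425 to 0.739), again with 83.3% of the UMIs of low cells in the top 5%. Few cells thus set both ratios, and counting intervals understate their error.

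Depth changed how many cells were seen to hold Saa3. A Saa3 UMI was found in 26.2% of low and 30.8% of Scgb3a2-high cells of Club-Tracer before thinning. After thinning to 5000 UMIs it was found in 12.5% of low cells (9.51% to 16.0%) and 18.3% of high cells (13.8% to 23.5%), whose intervals overlap. In BASC-Tracer the thinned shares were 9.23% (3.46% to 19.0%) and 12.8% (4.83% to 25.7%). Immune barcodes of BASC-Tracer (median 9375 UMIs) held a Saa3 UMI in 22.9% of cases and, of the 76 deep enough to thin, in 22.4%. Macrophages can make Saa3, and single thinned immune barcodes there reached 21 Saa3 UMIs, against at most 1 for Hp and 2 for Cyp2f2, so they gave no background for Saa3 and none is set here. In Club-Tracer 2.78% of 36 immune barcodes held one at a median of 2951 UMIs, and 7 were deep enough to thin.

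By the same depth groups, Saa3 in Club-Tracer low cells stood at 94.9 CPM in the 52 shallowest (66.8 to 131), 66.3 CPM in the 101 middle (54.1 to 80.5) and 107 CPM in the 271 deepest cells (101 to 114). Scgb3a2-high cells stood at 26.5 CPM (8.59 to 61.8, from 5 UMIs), 127 CPM (106 to 151) and 115 CPM (107 to 124) in those groups. The order of low and high cells thus turned in the shallowest group. Over the Scgb3a2 bins from low to high, Saa3 stood at 49.0, 119, 143, 94.3 and 181 CPM in Club-Tracer and at 6.49, 21.8, 95.9, 79.7 and 35.0 CPM in BASC-Tracer: lowest in the leftmost bin of both libraries, with no steady course above it.

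**Figure D5:**
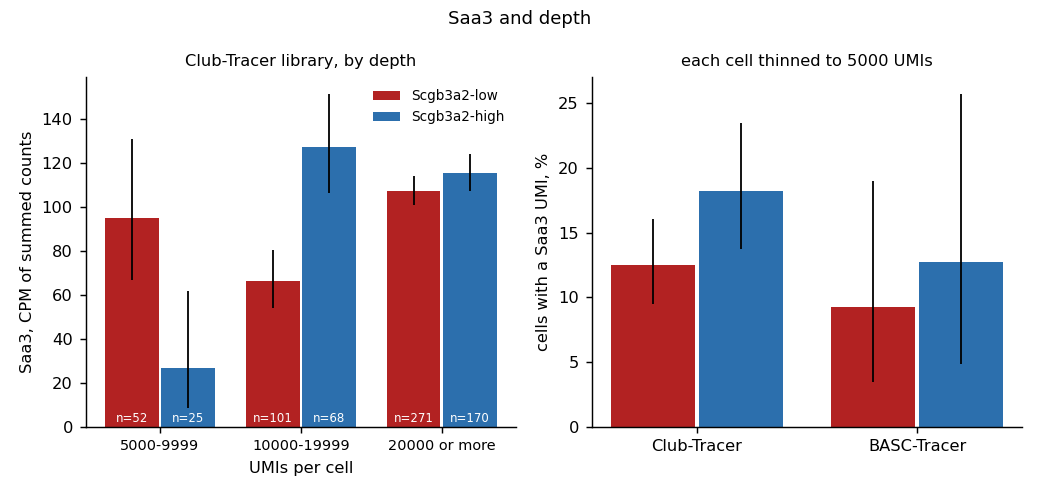
Saa3 in Scgb3a2-low and Scgb3a2-high cells: at left CPM by depth group in the Club-Tracer library with 95% Poisson intervals, at right the percentage of cells with a Saa3 UMI after thinning to 5000 UMIs with 95% Clopper-Pearson intervals. Low cells lie above high cells in the shallowest depth group and below them in the middle one, and the intervals of the shares overlap (12.5% against 18.3% in Club-Tracer).

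Saa3 was compared with other genes across the 424 Club-Tracer low cells. The genes most like it by Spearman's rho on CPM were Chil1, a chitinase-like secreted protein (0.30), Lcn2 (0.26) and Retnla (0.24); after thinning these were 0.25, 0.20 and 0.09. Saa3 itself had a rho of 0.11 with UMIs per cell. These values are weak and are no finding.

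Retnla and Lcn2 varied together from cell to cell more closely than Saa3 did with either. Their rho, computed without thinning, was 0.66 over 424 Club-Tracer low cells and 0.69 over 65 BASC-Tracer low cells. A UMI of Saa3 was found in 26.2% of Club-Tracer low cells, against 96.5% for Retnla and 91.0% for Lcn2. Their rho values are therefore not on an equal footing with those of Saa3. With UMIs per cell, Retnla had a rho of 0.32 and 0.23, and Lcn2 of 0.24 and 0.31, in Club-Tracer and BASC-Tracer. Cells high in the pair were not high in Cyp2f2, since Retnla and Cyp2f2 had a rho of -0.18 and -0.30. Some alveolar genes also varied together: Napsa and Slc34a2 had a rho of 0.53 and 0.60, and Napsa and Ager 0.46 and 0.41. Lyz2 had a rho of 0.39 and 0.39 with Napsa, but 0.09 and -0.09 with Ager. With Cyp2f2, Ager had a rho of 0.30 and 0.20 and Napsa of -0.02 and -0.03, so these genes were not 1 group set apart from Cyp2f2. Scgb3a2, on which the cells were chosen, had a rho of -0.36 and -0.35 with Napsa and -0.30 and -0.47 with Ager within the low cells. All pairs share the same libraries, and CPM within a cell sums to a fixed total.

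Retnla had the highest variance over mean among the low cells of Club-Tracer, a measure that tends to rise with a gene's level. Saa3 lay below the 200 CPM needed to be ranked. Over 307 genes at 200 CPM or more, thinned to 5000 UMIs per cell, the variance over the mean was 127 for Retnla, 118 for Lyz2, 51.7 for Sftpa1, 35.8 for the nuclear RNA Malat1 and 30.1 for Chia1. Clu, the secreted chaperone clusterin, followed at 20.3 and Cxcl15, a lung epithelial chemokine, at 16.3.

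Low cells of the Club-Tracer library were close to those of the BASC-Tracer library outside the reporters. Of 1751 genes tested, 3 were higher in Club-Tracer (0.171%) and 7 were lower (0.4%), 0.571% together, and the median log2 ratio was -0.07. At 1.5-fold, 7 were higher (0.4%) and 97 lower (5.54%). The 3 higher were S100a6, a calcium-binding protein, at 149 against 22.5 CPM, Lyz2 at 1800 against 660 CPM and Saa3 at 101 against 39.8 CPM (ratio 2.55). Each of these was held by few cells: the top 5% of Club-Tracer low cells gave 80.8% of the S100a6 UMIs, 72.4% of those of Lyz2 and 78.3% of those of Saa3. The 7 lower included ZsGFP, on which the sorts differed, and tdTomato transcript, although both sorts took tdTomato+ cells. Lars2, a mitochondrial leucyl-tRNA synthetase, was also among them, at 538 against 1156 CPM. Ptgs2, which makes prostaglandin precursors, stood at 179 against 355 CPM and just missed the limit. Cdkn1a, the p53 target p21, stood at 210 against 126 CPM. Without the shared barcodes 25 genes were apart: the log2 ratio of Saa3 was 2.52, against 1.25 with them, that of S100a6 was 2.11, and that of Lyz2 was 0.87, no longer apart. Ptgs2 (log2 -1.08) and Cdkn1a (log2 1.16) were then apart.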

How the data were processed

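The deposited values are UMI counts per gene and barcode, in 1 filtered matrix per library, per the file headers. Cell Ranger 6.1.1 and mm10 were used by the authors, per the submitters' processing notes. Sums, ratios and intervals were computed with pandas 2.3.3, scipy 1.17.1 and numpy 2.4.6 under Python 3.11.15, doublet scores with scanpy 1.11.5 (anndata 0.12.19), and figures were drawn with matplotlib 3.10.9. The libraries held 5304, 2439 and 8884 barcodes with 62570890, 29013077 and 72256580 UMIs (Club-Tracer, BASC-Tracer and AT2-Tracer).

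UMIs of the cells of a group were summed and given as CPM, and groups were compared by log2 ratios with 5 CPM added. Intervals and floors cover counting error only, not the spread between cells or animals. Scrublet's automatic threshold marked 0.0313%, 0% and 1.72% of barcodes, which is under 0.5% in Club-Tracer and in BASC-Tracer, so there the barcodes of highest score were marked instead, at 0.8% per 1000 barcodes; marked cells were kept and leaving them out is an alternative. Thinning drew 5000 UMIs from each cell.

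The members and gene lists were chosen with earlier results of these data known. Named genes were the 12 highest and 12 lowest low-over-high ratios in Club-Tracer (50 CPM and 30 UMIs or more), the 8 highest and 8 lowest Club-Tracer over BASC-Tracer ratios, the acute phase genes at 50 CPM or more, up to 4 genes of each other list, and 10 genes by variance. The 47 Scgb3a2-high cells of BASC-Tracer fell short of a planned minimum of 50, which was lowered to 40 after seeing the data. The ranking in Club-Tracer therefore did not require the same direction in BASC-Tracer. Without the shared barcodes, 45 low and 27 Scgb3a2-high cells were left in BASC-Tracer. That comparison was kept although its high group fell short of the lowered limit too. Endothelial barcodes, planned as background for free RNA, numbered 3, 2 and 9, so immune barcodes were used, also chosen after seeing the data; they give no background for genes that immune cells make, such as Saa3 and Lyz2. A gene of the ranking is not reported here. The scripts were tested on simulated data. Gene positions are from GENCODE vM21 (GRCm38). Alternatives covered the selection limits, doublets, shared barcodes, scaling, expression minimum, added CPM, thinning and a 1.5-fold limit.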

Additional observations from a re-analysis of the deposited data

Results flagged for a closer look

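Of the genes ranked for the low against Scgb3a2-high comparison and the acute phase genes, 4 lay on opposite sides of equality in Club-Tracer and in BASC-Tracer, by more than their counting intervals; whether the difference between libraries exceeds the spread between animals was not tested. Cxcl2, a neutrophil chemokine, had a log2 ratio of -0.50 in Club-Tracer (58.8 against 85.4 CPM) and 2.54 in BASC-Tracer (52.2 against 4.80 CPM). The top 5% of low cells held 85.7% of its UMIs in Club-Tracer and 93.2% in BASC-Tracer. Over 15 alternatives the Club-Tracer ratio of Cxcl2 ran from -0.69 to 1.32 and kept its sign in 13, so its side in that library depended on the settings. The Lcn2 ratio was 0.13 in Club-Tracer and -0.38 in BASC-Tracer, or -0.05 in BASC-Tracer without the shared barcodes. That of Cebpd was 0.35 in Club-Tracer and -0.42 in BASC-Tracer, or -0.68 in BASC-Tracer without the shared barcodes. That of Elovl1 was 0.93 in Club-Tracer and -0.39 in BASC-Tracer, or 0.58 in BASC-Tracer without the shared barcodes.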

How the results depend on the processing

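No paired analysis was possible because each sort is 1 library with no replicate numbers. Of the 6 Club-Tracer genes apart, other settings gave 14 (Scgb3a2 limit 0.5%), 10 (2%), 19 (CPM outside the genes of the selection), 17 (20 CPM minimum), 10 (1 CPM added), 15 (thinned) and 41 (1.5-fold). The 21 BASC-Tracer genes became 103 (without shared barcodes), 12 (centred), 38 (20 CPM), 9 (100 CPM), 11 (20 CPM added), 153 (thinned) and 92 (1.5-fold); at a 2% limit only 20 Scgb3a2-high cells were left and no value was computed. The 10 genes apart between libraries became 16 (Scgb1a1 limit 20%), 25 (without shared barcodes), 18 (20 CPM), 35 (thinned) and 104 (1.5-fold). The Saa3 ratio of low over high cells became 0.651 (0.5%), 0.703 (2%) and 0.780 (thinned) in Club-Tracer, and 0.142 (0.5%), 0.20 (without shared barcodes) and 1.21 (thinned, above equality) in BASC-Tracer; a median over cells was 0 in each group and gave no ratio. The Club-Tracer share of low cells became 17.8% (10000 UMIs), 17.8% (Scgb1a1 20%), 14.4% (Scgb1a1 30%), 12.1% (0.5%) and 21.0% (2%), and the BASC-Tracer share 4.96% (0.5%), 9.12% (2%) and 4.91% (without shared barcodes). The log2 ratio of Bpifa1 was 2.43 at a 2% limit, opposite to the value at 1%, since few cells hold its UMIs. Over 15 alternatives the median of the AT2 list stayed between 0.55 and 0.78 and that of the AT1 list between 0.33 and 0.52 in Club-Tracer. The causes of the other moves were not tested. Depth limits single-cell detection of genes near 100 CPM, and 1 library per sort leaves the spread between animals unknown.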

Other observations

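Several further gene groups were measured in the low cells. Of 35 lung transcription factors, 15 were tested in Club-Tracer and none was apart; 12 lay higher in low than in Scgb3a2-high cells, with a median log2 ratio of 0.22 beside 0.09 for all genes. In BASC-Tracer 17 were tested and 12 lay higher, with a median of 0.24 beside 0.13; 1 was apart, Id3 (named after its value was seen), an inhibitor of helix-loop-helix factors, at 175 against 37.8 CPM, where Club-Tracer gave 120 against 90.9 CPM. Nkx2-1, the lung lineage factor, stood at 80.1 against 57.8 CPM in Club-Tracer and 105 against 81.0 CPM in BASC-Tracer. Scnn1a, a subunit of the epithelial sodium channel, stood at 213 against 162 CPM and 254 against 198 CPM. Cxcl15 stood at 3843 against 2612 CPM and 4404 against 3191 CPM, under 2-fold in each library. Of the MHC class I and interferon list (37 genes), none of 7 tested was apart in Club-Tracer (median -0.04) and 1 was higher in BASC-Tracer, Irf1 (named after its value was seen), at 69.0 against 29.8 CPM.

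Clusterin (Clu) stood at 318 against 339 CPM in Club-Tracer and 460 against 111 CPM in BASC-Tracer, where the top 5% of low cells held 64.5% of its UMIs. Between the low cells of Club-Tracer and BASC-Tracer, the secretory pathway list (30 genes) lay lower in Club-Tracer in 15 of 18 genes tested (median -0.30 beside -0.07 for all genes), with none apart.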
